A study of Homo sapiens with 6 samples.

Results

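The regions described here are the ends of 200 5′UTRs, those with the highest ribosome occupancy relative to their own coding sequence (CDS). They were chosen from a table of normalised ribosome occupancy that lists 9570 transcripts, of which 2299 met the minimums: 34 or more values in the 5′UTR, 10 or more of them above 0, and 100 or more CDS values above 0. For each of these the mean of the last 17 values of the 5′UTR was divided by the mean of the CDS, and the 200 highest ratios were taken. The choice therefore rests on measured occupancy, and the ratios are given as a description, without a test. The other 2099 transcripts that met the minimums serve as the background.

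The data come from ribosome profiling of HEK293 cells, an established line from human embryonic kidney, in which the fragments of mRNA protected by ribosomes (RPFs) are sequenced beside total RNA. There were 3 RPF libraries and 3 total RNA libraries, numbered 1 to 3, of one condition. The labels name a control siRNA, which the methods do not describe for this experiment, and cycloheximide, which holds elongating ribosomes in place, was given to the living cells for 3 min before lysis and was present at 100 µg/ml in the lysis buffer. No second condition was available, so members were compared with other transcripts and not between treatments. Of 8 markers of HEK293 cells 7 were listed in the occupancy table (PAX2 was not), and of 6 markers of other cells only COL1A1 was.

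Ribosomes normally scan the 5′UTR and begin translation at a suitable AUG. Upstream open reading frames (uORFs) that start before the annotated AUG capture part of the scanning ribosomes, and in mRNAs such as ATF4 this controls how much protein is made under stress. Some mRNAs also begin translation upstream in the frame of the CDS, at an AUG or at a related codon such as CUG, which gives a protein with a longer N-terminus, and alternative transcripts of a gene can place their start codons at different positions.

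The members had been proposed as candidates for upstream initiation in the frame of the CDS. The values of the 5′UTR are named in-frame in the table, but they followed steps of 3 nt counted from the 5′ end of the mRNA, not from the annotated AUG. Of 7673 transcripts matched to GENCODE 44 by gene symbol and CDS length, 458, 424 and 448 had a 5′UTR that was 10, 11 or 12 nt longer than the listed triplets account for, against 51 to 83 transcripts at each of the 3 neighbouring lengths on either side. Such a list can be in any of the 3 frames, so a high ratio alone does not show translation in the frame of the CDS. In these 1330 transcripts, occupancy at the 738 upstream AUGs in the frame of the list averaged 0.88 of the CDS mean (each value capped at 5 times the CDS mean) and 0.17 at the triplet before. At 1515 upstream AUGs in the other frames it averaged 0.50, with 0.31 at the triplet before. The distance of each value from the annotated AUG stays known to within 2 nt, so levels and positions can be read for all members, whereas the reading frame can be read only where the length of the 5′UTR is matched. This was so for 49 of the 184 members that matched a GENCODE transcript, and in 25 of the 49 (51%) the list was in the frame of the CDS, against 93 of 293 others (31.7%). Neighbouring lengths show that some of these length matches arise by coincidence. In the other 135 of the 184 members the GENCODE 5′UTR did not match in length. Their sequence features and uORFs are therefore read from a 5′UTR that may differ from the deposited one.

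**Figure D1:**
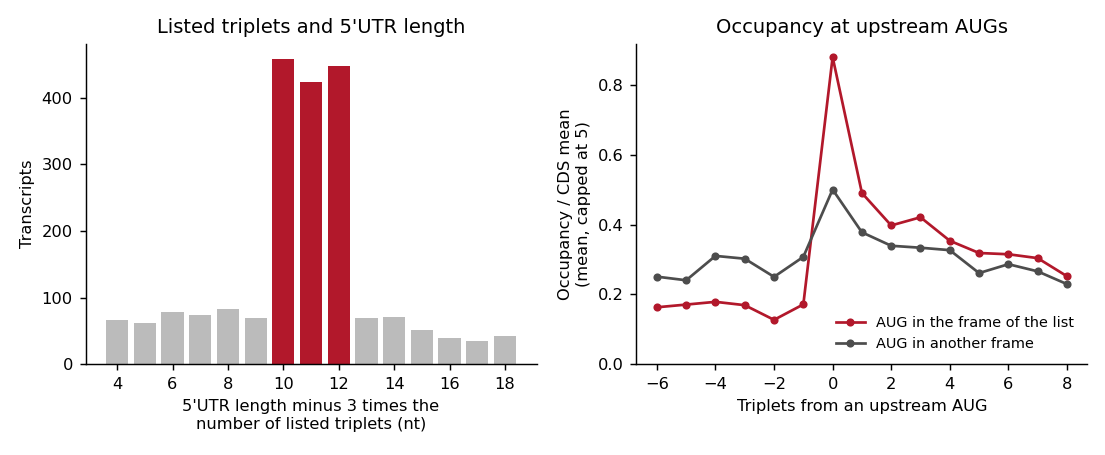
Left, transcripts by the difference in nt between the annotated 5′UTR length and 3 times the number of listed triplets, with 10, 11 and 12 nt in red. Right, mean occupancy over the CDS mean (capped at 5) by triplets from an upstream AUG, for AUGs in the frame of the list (red) and in the other frames (grey); the peak at the AUG is 0.88 in red and 0.50 in grey.

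The sequences around the upstream AUG and the annotated AUG are shown for the 5 members that are among the 12 highest ratios and have an AUG-started uORF over at least 26 of the last 51 nt, since the position of that upstream AUG is what the occupancy is read against. Each is 24 bases of the GENCODE 44 transcript on GRCh37, 5′ to 3′, with the AUG in capitals as ATG.
ATF4 upstream AUG: ggcttaagccATGgcgcttctcac
ATF4 annotated AUG: gcaccgcaacATGaccgaaatgag
KMT2E upstream AUG: atgcacttagATGtttgcaatgag
KMT2E annotated AUG: ggcgaacgtcATGagcatagtgat
TET1 upstream AUG: caaaggaccaATGactctgtttcc
TET1 annotated AUG: ctctgtagctATGtctcgatcccg
TCAIM upstream AUG: gccgcaattaATGgatgcctcgaa
TCAIM annotated AUG: atattcagaaATGttttgccacct
ENOSF1 upstream AUG: cgcaggggccATGgtgcgcggcag
ENOSF1 annotated AUG: atagaaactgATGcagaagatgga
The upstream AUGs lie in the annotated 5′UTR at chr22:39916752-39916754 on the plus strand for ATF4, chr7:104681305-104681307 (plus) for KMT2E, chr10:70332050-70332052 (plus) for TET1, chr3:44396237-44396239 (plus) for TCAIM and chr18:712585-712587 (minus) for ENOSF1. Their distances to the annotated AUG in the mRNA are 97, 95, 46, 38 and 130 nt. The annotated AUGs are at chr22:39917451-39917453, chr7:104681400-104681402, chr10:70332096-70332098, chr3:44396275-44396277 and chr18:706530-706532. In KMT2E the annotated AUG is followed by an A, so that the TGA that ends the uORF shares the T and G of the annotated ATG.

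The ratios of the 200 members ran from 15.8 in ATF4 to 0.871 in GATA4, with a median of 1.6, and 174 of them were above 1. Among the other 2099 transcripts the median was 0.0948. Just inside the limit were ACSL3 (0.887), ZFYVE16 (0.880) and GATA4 (0.871), and just outside it SLCO5A1 (0.862), GTF2F1 (0.860) and ZDHHC5 (0.856), so the limit cuts through a continuous series of values. Both terms of the ratio set the members apart. The median occupancy of the last 17 triplets was 0.0569 per triplet in members and 0.00533 in the others, and the median CDS occupancy was 0.0344 and 0.0557 per codon. These are RPF reads scaled by library size and divided by mRNA abundance. By these medians the members differed from the others more at the 5′UTR end than in the CDS, but single members varied. In ATF4 the window mean was 0.0377, below the median of members, and the CDS mean was 0.00238. In KMT2E, the next in rank, they were 0.177 and 0.0147.

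In members, average occupancy was higher near the AUG than 34 triplets upstream, with a dip at triplets 3 and 2. It was 0.491 of the CDS mean 34 triplets upstream, 0.933 at triplet 18, 1.02 at triplet 17, where the counted window begins, and 1.52 at triplet 5. It was then 1.06 at triplet 3, 0.966 at triplet 2 and 1.52 at triplet 1, next to the AUG. The values from triplet 17 on were used to choose the members, and so was the CDS mean that divides every value. The others stayed at 0.189, 0.193, 0.164 and 0.177 at triplets 34, 18, 17 and 5, and stood at 0.349 at triplet 1. At the annotated AUG itself, which the rule uses only within the CDS mean, the averages were 2.28 in members and 1.58 in the others.

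**Figure D2:**
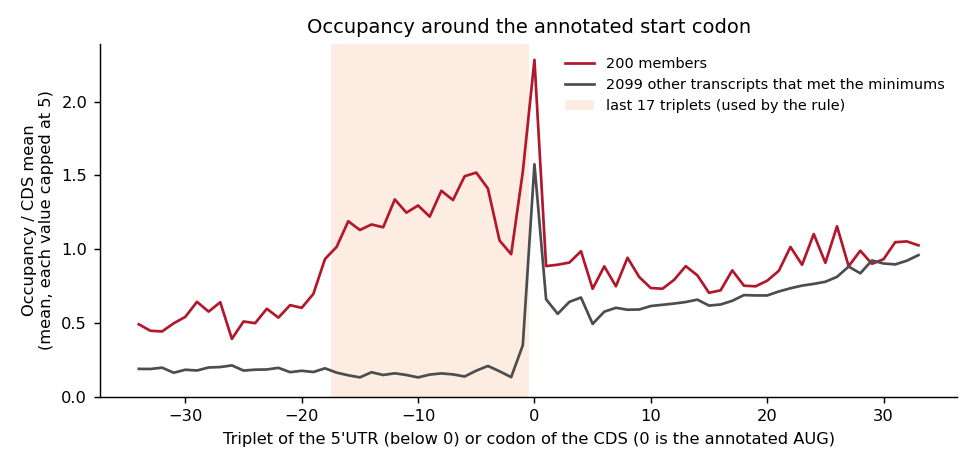
Mean occupancy over each transcript's CDS mean (each value capped at 5) for the last 34 triplets of the 5′UTR and the first 34 codons of the CDS, in the 200 members (red) and the 2099 other transcripts that met the minimums (grey). The shaded 17 triplets were used to choose the members, so members stand above the others in them by choice. Members also stand above the others in the triplets upstream, but every value is divided by the CDS mean, which the rule used too.

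The table combines the libraries, but the values of each member could be split into whole numbers of reads from 3 libraries, with 1 fixed worth per read and library. Whole reads per library were therefore recovered for the windows of all 200 members, and for every 5′UTR and CDS value of 199 of them. The libraries are not named in the table, and the 3 values of a member are given in the order of what a read is worth in it. A window held 9 to 4743 reads, with a median of 76 against 12 in the others, and 40 members had fewer than 30. The members together held 123238 recovered reads in the 5′UTR, 51042 of them in the windows, and 785595 in the CDS. POM121C and POM121 each had 96, 87 and 50 reads in the window, so the same reads may be counted in both. In 198 members all 3 libraries had reads in the window, with TRIM39 and PTCH1 as exceptions. The ratio of each library was at or above the ratio of rank 200 in all 3 libraries for 145 of 199 members. The coefficient of variation between libraries had a median of 19.8% (SD over mean) over the 197 members with a ratio above 0 in each library. These are read counts without a test, because the same reads chose the members.

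ATF4, a transcription factor of the stress response, had 781, 503 and 443 reads in the window and ratios of 17.3, 12.6 and 18.2 (mean 16.0 ± 3.0, SD, n = 3 libraries). All 3 lay above every library of the members from rank 3 on, the highest of which was 11.5 in ZNF107. KMT2E, a chromatin regulator, had ratios of 12.6, 10.1 and 13.3 on 47, 32 and 29 reads. The libraries of ATF4 and KMT2E overlapped, so their order is not settled by these data. TET1, which oxidises methylcytosine in DNA, had ratios of 7.94, 7.55 and 9.61, TCAIM, a mitochondrial protein, 8.31, 7.76 and 8.5, and GORASP2, a Golgi stacking protein, 6.90, 6.86 and 7.71. ZNF107, a zinc finger protein, varied more, with 7.55, 5.20 and 11.5. These neighbours in rank overlapped between libraries, except that the highest library of GORASP2 lay just below the lowest of TCAIM.

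Among the other members of the 12 highest, B4GALT3, a galactosyltransferase, had ratios of 7.68, 5.69 and 7.77, and DCAF11, a substrate receptor of a ubiquitin ligase, 6.41, 7.58 and 6.22. RNF216, a ubiquitin ligase, had 6.03, 6.40 and 5.83, ENOSF1, a mitochondrial enzyme, 5.85, 5.31 and 6.23, and PRRC2A, an RNA-binding protein, 5.82, 5.24 and 6.23. ATN1, a transcriptional corepressor, rested on 31, 14 and 16 reads and its libraries differed widely, with 6.94, 3.23 and 7.47. At the limit, GATA4, a transcription factor with 4, 7 and 5 reads in its window, had ratios of 0.464, 0.962 and 1.21, a spread that covers all 6 transcripts just inside and outside the limit.

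**Figure D3:**
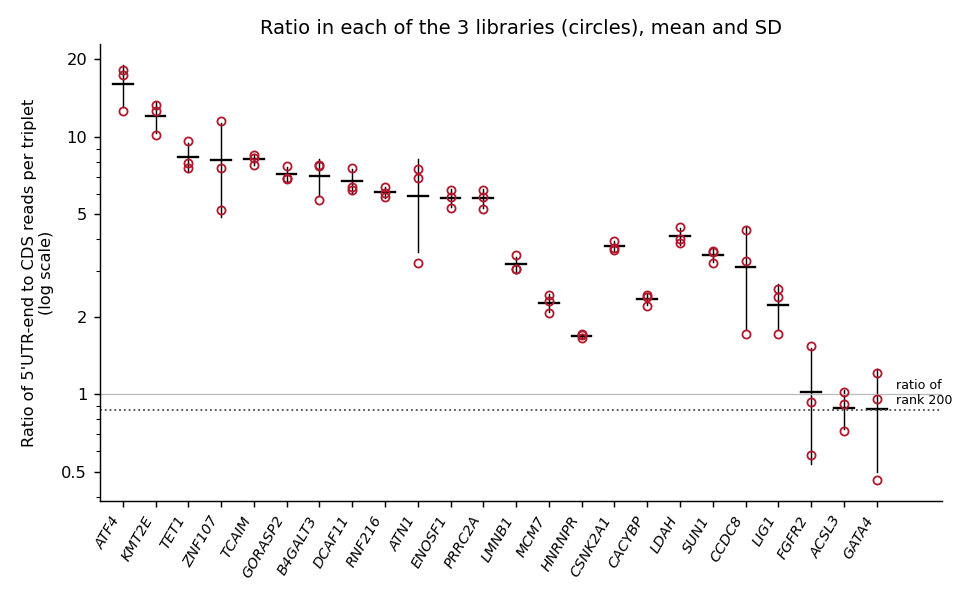
Ratio of reads per triplet in the last 17 triplets of the 5′UTR to reads per codon in the CDS (log scale) for 24 members: the 12 highest, then members with many reads, with CDS of another isoform or with an upstream AUG in frame, and 2 members at the limit. Circles are the 3 libraries, the bar their mean and the line ± SD; the dotted line is the ratio of rank 200, and the libraries of ATF4 sit between 12.6 and 18.2 while those of GATA4 fall on both sides of the line.

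The occupancy was not spread in the same way. In the median member 10 of the 17 triplets were above 0. The share of the window held by its highest triplet had quartiles of 27.4% and 51.7%. It was 50% or more in 55 of 200 members (27.5%), against 853 of 1890 others (45.1%), so such windows were less common in members. The windows of the others held fewer reads (median 12 against 76), and the shares were not compared at equal depth. In B4GALT3 1 triplet held 96.3% of the window and only 2 of 17 were above 0, in RNF216 1 triplet held 93.2%, and in TET1 78.2%. By contrast all 17 triplets were above 0 in ATF4, GORASP2, LMNB1, CACYBP, HNRNPR and CSNK2A1. A ratio from 1 triplet has reads from all 3 libraries in these members, but it rests on a single position.

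Sequence was not used by the rule. Of the 184 matched members, 93 (50.5%) had an AUG-started uORF in any frame over at least 26 of the last 51 nt, against 370 of the 1966 matched others (18.8%). CDS of another annotated isoform covered as much in 51 members (27.7%) and 194 others (9.87%). One or the other was found in 116 members (63.0%) and 488 others (24.8%). With 30 or more reads in the window the shares with a uORF were 68 of 146 members (46.6%) and 100 of 641 others (15.6%). These counts of any frame were chosen after the frame of the table had been seen.

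The windows of members also had less G and C, with a median of 47.1% against 56.9%, and 96 of 184 (52.2%) held an AUG in any frame against 353 of 1966 (18.0%). Within windows of under 45% G and C, a uORF was found in 37 of 69 members (53.6%) and 115 of 477 others (24.1%). From 45% to under 60% it was 42 of 90 (46.7%) and 138 of 604 (22.8%), and from 60% on 14 of 25 (56.0%) and 117 of 885 (13.2%). Members had the larger share in each of the 3 ranges.

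**Figure D4:**
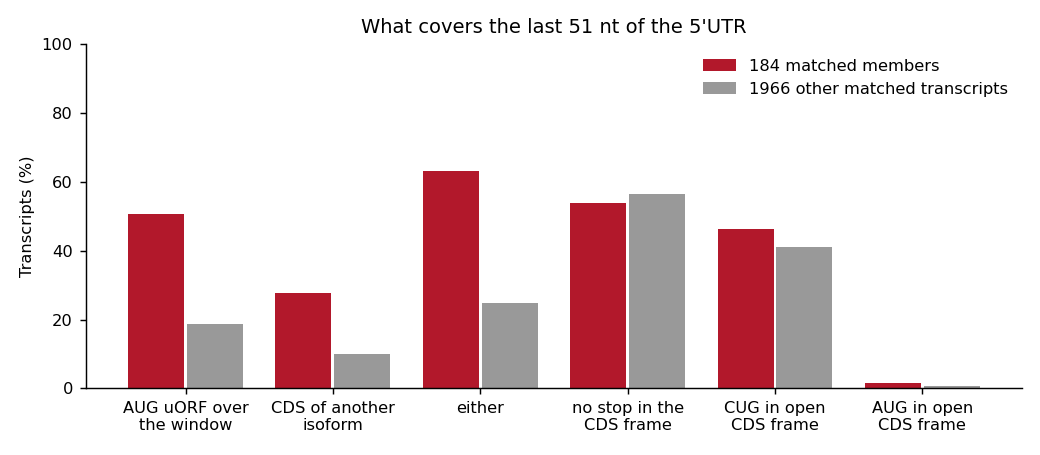
Percentage of the 184 matched members (red) and the 1966 other matched transcripts (grey) whose last 51 nt are covered over at least 26 nt by an AUG-started uORF, by CDS of another isoform or by either, and percentage with no stop codon, a CUG or an AUG in the open stretch read in the frame of the CDS. The first 3 pairs differ most, with 50.5% against 18.8% for uORFs; the last 3 pairs lie close together.

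Where the frame of the list was known, it could be set against the frame of the uORF. A uORF in the frame of the list covered the window in 17 of 49 members (34.7%) and 18 of 293 others (6.14%), whereas uORFs in other frames alone did so in 11 members (22.4%) and 54 others (18.4%). For CDS of another isoform the figures were 17 of 49 members (34.7%) and 20 of 293 others (6.83%) in the frame of the list, and 4 members (8.16%) and 46 others (15.7%) in other frames alone. The difference between members and others was thus seen in the frame that the table reads. Over all 342 such transcripts the median ratio was 0.938 for 21 with a uORF in the frame of the list and no isoform CDS, 0.185 for 38 with a uORF in other frames alone, 0.814 for 37 with isoform CDS in the frame of the list, 0.153 for 50 with isoform CDS in other frames alone, and 0.124 for 196 with neither.

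Of the 93 members with a uORF, 28 also had CDS of another isoform over the window, so reads there cannot be assigned to the uORF alone. The 93 uORFs had a median length of 33 codons where triplets upstream of them could be read (92 members). In these 92 members the uORF made up a median of 25.0% of the listed triplets of the 5′UTR and held a median of 75.4% of its reads, and mean occupancy was higher within it than upstream of it in 87. The window was chosen for high occupancy, so this placement is a description. In 64 of the 92 the length of the 5′UTR was not matched, so the place of the uORF is less certain there. Of the 93, 27 (29.0%) ended before the annotated AUG and 42 (45.2%) ran past it in another frame, beside 146 (39.5%) and 175 (47.3%) of the 370 uORFs of the others. In 22 members (23.7%) and 39 others (10.5%) the stop codon shared bases with the annotated AUG, its UG in 13 of these members, KMT2E among them, and its A in 9. The remaining pair, in LIG1 and FGFR2, was in the frame of the CDS and had no stop codon before it. A or G stood 3 nt before the upstream AUG, as is favourable for initiation, in 39 of 92 uORFs, and before the annotated AUG in 67 of the 93 members.

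In ATF4 the uORF of 59 codons began 97 nt upstream and ran 80 nt past the annotated AUG, the arrangement known for its regulation. It held 2531 of the 3340 reads in the 5′UTR, at 11.9 times the CDS mean, but only 8 of them lay at its AUG or 1 triplet to either side. The last triplet before the CDS alone stood at 74.3 times the CDS mean. The list of ATF4 appeared to be in the frame of the CDS and not of this uORF, although several annotated 5′UTRs fit it. In TET1, whose uORF began 46 nt upstream, 170 of the 212 reads within it lay at the AUG or 1 triplet to either side. In TCAIM 186 of 192 reads of the 5′UTR lay within a uORF of 17 codons in the frame of the list, with a mean occupancy of 0.183 within it and 0.00118 upstream. Of the 186 reads, 75 lay at its AUG or 1 triplet to either side. Annotated transcripts of TCAIM with the same CDS length differ in sequence over the window, so this uORF depends on the transcript matched. In KMT2E 152 of 250 reads lay within a uORF of 32 codons, but only 7 at its AUG. ENOSF1 had all 293 reads of its 5′UTR in a uORF of 117 codons that begins 130 nt upstream, 0 of them at its AUG. The same stretch is CDS of another isoform in the frame of the list.

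**Figure D5:**
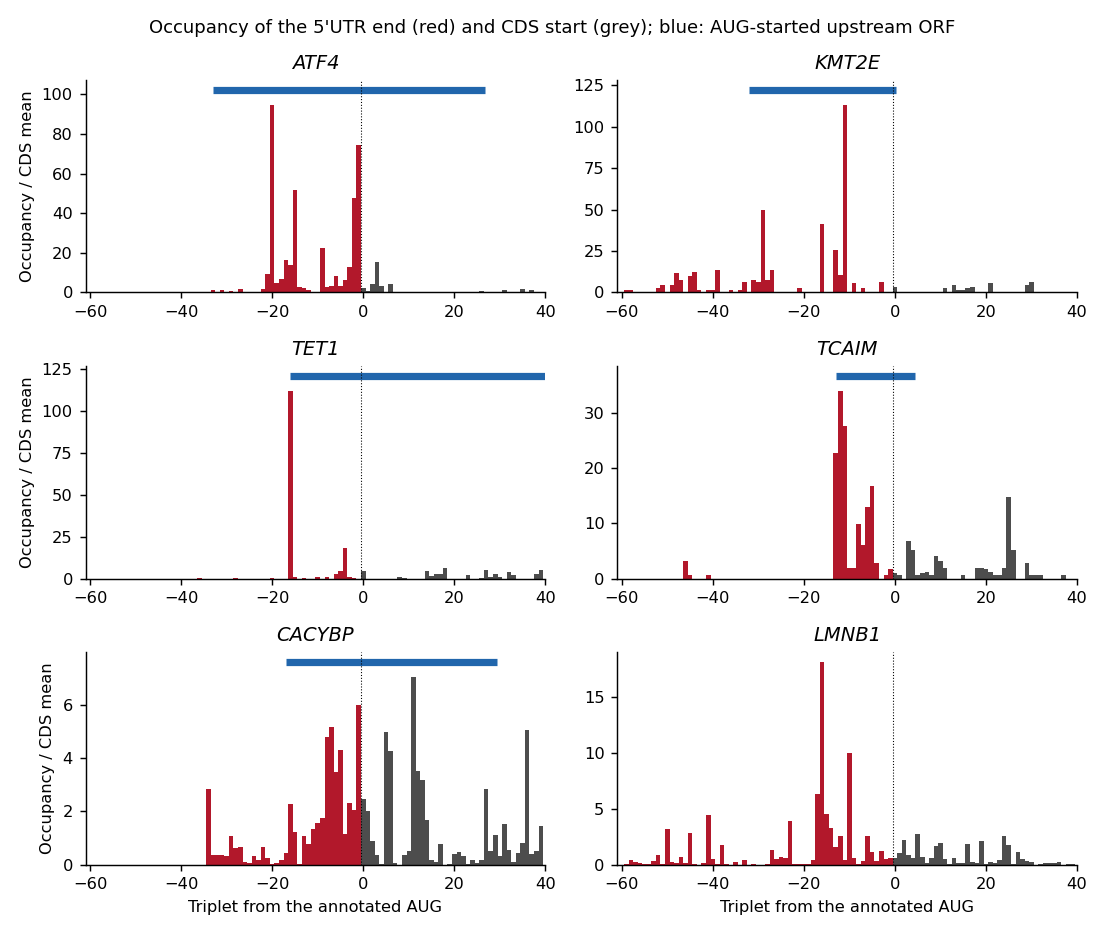
Occupancy over the CDS mean for the last 60 listed triplets of the 5′UTR (red; fewer where the list is shorter) and the first 40 codons of the CDS (grey) in 6 members, with the AUG-started uORF over the window as a blue bar and the annotated AUG as a dotted line. In TET1 the highest triplet stands at the start of the uORF, and in TCAIM nearly all 5′UTR occupancy lies within it; LMNB1 had no matched transcript, so no uORF could be drawn.

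The members with the most reads belong to genes with a longer annotated CDS. In CACYBP, which binds calcyclin, the window held 4743 reads (ratios 2.20, 2.44 and 2.40), in MORF4L1, a chromodomain protein, 3140, and in CSNK2A1, the catalytic subunit of casein kinase, 2100 (ratios 3.95, 3.71 and 3.62). All 51 nt of these windows are CDS of another isoform in the same frame as the annotated CDS. LMNB1, the nuclear lamin B, with 4356 reads, MCM7, a subunit of the replicative helicase, with 2653, and HNRNPR, an RNA-binding protein, with 2412 had no GENCODE transcript of the same CDS length. Counted back from the stop codon, each has a GENCODE transcript with a longer CDS and an AUG where the deposited CDS would begin, 210, 69 and 101 codons after the longer start. The same was found for 9 of the 16 unmatched members, GORASP2 among them, and not for the other 7. This was looked up for members only, so no share of the background stands beside the count and nothing is read from it.

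Of matched members, 47 (25.5%) had the window in CDS of another isoform in the frame of their own CDS, against 176 others (8.95%). The 8 of these with the highest ratios were ZNF107, CEP170B, the lipid droplet hydrolase LDAH, CSNK2A1, ZNF48, the nuclear membrane protein SUN1, CCDC8 and the mitochondrial carrier SLC25A14. LDAH had ratios of 4.01, 3.87 and 4.45 and SUN1 3.6, 3.23 and 3.58, which agreed closely between libraries. CCDC8 had 3.30, 4.36 and 1.72, and CEP170B had only 6, 7 and 3 reads. Reads in such windows cannot be assigned to 1 of the 2 isoforms, since both contain the sequence.

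Stop codons and start-like codons in the frame of the CDS were counted as well. The window had no stop codon in that frame in 99 of 184 members (53.8%) and 1107 of 1966 others (56.3%). The open stretch before the AUG held a start-like codon, AUG or a codon one base away, in 161 members (87.5%) and 1628 others (82.8%), and a CUG in 85 (46.2%) and 809 (41.1%). An AUG in the open stretch was found in 3 members (1.63%) and 16 others (0.814%). In LIG1, the replicative DNA ligase, it lay 162 nt upstream, 143 of the 145 reads of the 5′UTR lay downstream of it, and the ratios were 2.39, 1.71 and 2.56. However, 0 of these reads lay at that AUG or 1 triplet to either side, and 1 triplet held 69.9% of the window. In the growth factor receptor FGFR2 the AUG lay 57 nt upstream with ratios of 0.583, 1.55 and 0.937, and in NOTCH2NL, a NOTCH2-related gene, 39 nt upstream with 2.54, 2.41 and 2.69. The length of the 5′UTR was not matched in LIG1 and FGFR2, so the place of their AUG is less certain. The whole window of NOTCH2NL also occurs in another gene.

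Among the 25 members whose list was in the frame of the CDS, 15 had CDS of another isoform in that frame over the window, 4 had an AUG-started frame of the same phase (NOTCH2NL, with no stop before the CDS, among them), and 4 had uORFs in other frames alone. Only ZNF85, a zinc finger gene, and the homeobox gene EN2 had none of these, and both had no stop codon in the window. They are named after their values were seen. Of the 93 other transcripts with the list in the frame of the CDS, 17 had isoform CDS in that frame. An AUG-started frame of the same phase was found in 3, uORFs in other frames alone in 13, and none of these in 60. The share with uORFs in other frames alone was thus similar, at 4 of 25 members and 13 of 93 others. The part of ZNF85 and EN2 in upstream initiation at a codon other than AUG was not tested.

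Of 20 genes known for N-terminal extension from a codon other than AUG, 8 were in the table and 3 met the minimums, so at most 3 could be members, and none was. Among those that met the minimums, BAG1 had a ratio of 0.0214 on 1 read in the window and TEAD4 a ratio of 0.0238 on 2 reads, so their ratios were low at this depth. Of 20 genes known for regulatory uORFs all were in the table, 12 met the minimums, and ATF4 alone was a member. AMD1 and ODC1, of polyamine synthesis, stood at ranks 340 and 543 with ratios of 0.573 and 0.342, and the initiation factor EIF5 at rank 676 with 0.266. ATF5 (4.51) and DDIT3 (0.976) had high ratios but did not meet the minimums. The share of members, 1 of 12, was near that of all transcripts that met the minimums (8.70%), so nothing is read from it.

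By symbol, 18 members (9.0%) were ZNF genes, of C2H2 zinc finger proteins, against 108 of the others (5.15%). No member began with RPL, RPS, MRPL, MRPS, EIF, PSM, NDUF, UBE, DNAJ or HIST, and each of these prefixes, RPL with RPS and MRPL with MRPS counted as 1 each, had only 1 to 13 transcripts among the others. SLC had 1 member (0.50%) against 52 others (2.48%), and TMEM and RAB 1 member each. In 20 of 184 members (10.9%) and 131 others (6.66%), 50% or more of the 30-base stretches of the window occurred in a transcript annotated to another gene. These include ATF4, KMT2E, CSNK2A1, MORF4L1 and NOTCH2NL, whose reads may belong in part to that transcript. Without windows that share any such stretch, 80 of 158 members (50.6%) and 338 of 1801 others (18.8%) had a uORF over the window.

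Translational efficiency, in which the RPFs of a gene are divided by its total RNA, was listed for 140 of the 200 members and is tied to the same CDS reads as the ratio that chose them. The medians of the members in replicates 1, 2 and 3 were 0.244, 0.237 and 0.257, and those of the 1797 others listed 0.442, 0.437 and 0.438. ATF4 stood at 0.0469, 0.0560 and 0.0490 and B4GALT3 at 0.0521, 0.0485 and 0.0600, the lowest among the 12 highest ratios. CACYBP stood at 2.83, 3.03 and 3.05, so a member can be efficiently translated. By limma on log2(value + 0.01) against the median of all values (FDR 0.05), 92 members lay below and 33 above, beside 44.6% and 44.7% of all 8121 genes. ATF4 lay 2.70 below the median on the log2 scale (log2 difference −2.70, SE 0.06, adjusted p in limma 2.3e-06). Nothing is read from this count, because fewer RPFs in the CDS lower the efficiency and raise the ratio alike.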

How the data were processed

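The authors trimmed reads with Cutadapt, removed duplicates with cd-hit-dup, aligned RPFs of 28 to 30 nt to the hg19 transcriptome with bowtie (offset 13 nt) and counted total RNA with HTseq-count. The labels' processing notes list cutadapt 1.16, Bowtie 1.1.2, TopHat2 2.1.1 and HTSeq 0.9.1, while the methods name Hisat2 for total RNA. The deposited occupancy is another unit, RPF counts normalised to library size and divided by TPM, per triplet, with the libraries combined by the authors, and the deposited translational efficiency is a ratio on a linear scale, RPFs over total RNA, for each replicate. In 31 transcripts a CDS list broken over lines was rejoined and the codon at the break set to missing.

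Ratios were computed as described in the results. Whole reads were recovered from sums of 3 steps at a relative tolerance of 3e-14, up to 3000 steps per triplet. This recovery was checked on simulated transcripts. Intervals between libraries cover 3 libraries that the table does not name, and the sources do not say that these came from separate cultures in a way that can be tied to them. Transcripts were matched to GENCODE 44 lifted to GRCh37 by symbol (RefSeq synonyms included), CDS codons and nearest 5′UTR length. Of the members 184 matched, 164 with 1 sequence over the window. Stop codons and start-like codons (AUG and the 9 codons 1 base away from it) were read upstream from the annotated AUG. AUG-started uORFs were taken once per stop codon, from their first AUG. Python 3.11.15, numpy 2.4.6, pandas 2.3.3, numba 0.67.0, R 4.3.3 and limma 3.58.1 were used, and the limma fit was tested on simulated data. Replicate columns of translational efficiency correlated with Pearson coefficients of 0.987 to 0.990 over genes.

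Members and lists were chosen with earlier results of these data known. Named are the 12 highest ratios, the 6 members with most reads in the window, members of 2 lists of known genes, up to 8 with isoform CDS in the frame of the CDS or with an AUG in frame, and 3 transcripts on either side of the limit. Members outside this rule are named after their values were seen. One gene of the list of N-terminal extensions is not reported here.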

Additional observations from a re-analysis of the deposited data

Results flagged for a closer look

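Reads in the 3′UTR were used in no comparison. The members held 1503 recovered reads there, and their median 3′UTR occupancy was 1.13e-05 per triplet against 1.71e-05 in the others. Of the 1503 reads, 707 lay in ZNF117, a zinc finger gene, at a mean occupancy of 0.0441 per triplet beside 0.187 per codon in its CDS. The next highest was EEF2K with 88. Their cause was not tested.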

How the results depend on the processing

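Of the 200 members, 133 were again among the 200 highest when the last 34 triplets were averaged in place of the last 17. Other planned settings kept 149 (last 10 triplets) to 197 (CDS mean without its first 15 and last 5 codons), and leaving out 1 of the 3 unnamed libraries of each transcript, chosen after seeing the data, kept 186 to 188. Without its highest triplet in each window 172 were kept. Start-like codons limited to AUG and CUG were found in 85 members in place of 161, by construction of the narrower list. Leaving out a replicate gave 7015 to 7091 genes away from the median translational efficiency beside 7249, and 122 to 126 members beside 125. With a replicate block 7265 genes and 126 members were called; among all genes 6 calls were lost, 22 gained and 0 changed sign, and among members 0 were lost and 1 gained. RPF and total RNA of a number come from the same lysate, so the ratio is already taken within pairs. In all, 29 of 31 alternatives stayed within 1.5 times the main count. Windows with few reads limit the single ratios: 40 members had fewer than 30 reads.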
